A study of Mus musculus with 36 samples.

Results

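Sec14l1 is the gene described here, 1 of the 31890 genes with an intron in the deposited tables. It was chosen because its spliced reads were lower in Zrsr2 knockout than in wild-type myeloid progenitors. Its 15 introns were found among the 219945 listed introns by their match to the introns that GENCODE M21 annotates for it. The choice used the knockout and wild-type progenitor libraries, so their values are given as a description without a test. Tests were made only in cells and contrasts that the choice did not use.

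The series measured polyadenylated RNA in 36 libraries from C57BL/6 mice as reads over introns. Sorted progenitors of 3 types came from 3 wild-type (WT) and 3 Zrsr2-deficient (KO) male littermates, with no treatment named: CMP, the common myeloid type, GMP, which give granulocytes and monocytes, and MEP, which give megakaryocytes and erythroid cells. Embryonic fibroblasts (MEF) came from 3 WT and 3 KO male embryos, numbered 4 to 6. Bone marrow cells without lineage markers and with Kit (Lin-Kit+) from WT or KO mice were cultured ex vivo after transduction with a control hairpin RNA or with hairpin sh1 or sh10 against Zrsr1, in experiments 1 and 2, with 12 libraries over 6 groups. The labels name the KO animals Zrsr2-deficient without describing the allele or the age of the mice. Whether Lin-Kit+ libraries stem from different mice is not in the labels. Their p-values therefore measure only how far these libraries spread, which may be technical.

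SEC14-like proteins carry a pocket that binds a lipid and are known for moving lipids between membranes. SEC14L1 joins this SEC14 domain to a PRELI domain, known from proteins that carry phospholipids between mitochondrial membranes, and to a GOLD domain, known from Golgi and secretory proteins. It has been described as a binding partner of cholinergic transporters and of RIG-I, a sensor of viral RNA that signals to interferon genes. ZRSR2, the protein missing in the KO, acts where the spliceosome of the rare U12-type introns meets the intron's 3′ end.

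The gene (ENSMUSG00000020823.16, mm10, chromosome 11, 117115168 to 117159268, plus strand) has 6 annotated transcripts. Of these 3 are protein coding: Sec14l1-201, Sec14l1-202 and Sec14l1-203 share introns 1 to 15 and encode 719, 715 and 716 codons without the stop codon. Intron 1 (1808 bases) lies in the 5′ UTR and the other 14 in the coding part, with intron 2 the longest at 24165 bases. The annotation holds 3 further introns that were not analysed here, 1 of the short noncoding transcript Sec14l1-205 and 2 at the alternative 3′ ends of Sec14l1-201 and Sec14l1-203. The alternative last exons were therefore not read. Noncoding Sec14l1-204 ends inside intron 12 and noncoding Sec14l1-206 starts inside intron 13, so exon-intron reads at the 5′ end of intron 12 and the 3′ end of intron 13 cannot be told apart from reads of those transcripts. The other end of each lies outside them, and the retention values given below pool both ends of an intron. None of the 15 introns was shared with another gene.

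Sequences of 2 kinds bear on these data, the bases before the start sites, since only transcripts from the first start hold introns 1 and 2 whole, and the intron ends that could be read at the introns with the highest retention. RefSeq (GRCm38.p6) gave 2 start sites for Sec14l1, and each window of 250 bases before a start is shown with the GC box motif GGGCGG, or its reverse complement, in capitals. The first window (chr11:117114918-117115167, plus strand) precedes the start of the full transcript, and the second (chr11:117135758-117136007, plus strand) lies inside intron 2.
promoter 1: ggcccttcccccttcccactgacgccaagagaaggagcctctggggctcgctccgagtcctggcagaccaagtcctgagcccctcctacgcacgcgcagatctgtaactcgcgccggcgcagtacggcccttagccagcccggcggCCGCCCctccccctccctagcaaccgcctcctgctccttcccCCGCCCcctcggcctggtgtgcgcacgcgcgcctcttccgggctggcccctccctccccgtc
promoter 2: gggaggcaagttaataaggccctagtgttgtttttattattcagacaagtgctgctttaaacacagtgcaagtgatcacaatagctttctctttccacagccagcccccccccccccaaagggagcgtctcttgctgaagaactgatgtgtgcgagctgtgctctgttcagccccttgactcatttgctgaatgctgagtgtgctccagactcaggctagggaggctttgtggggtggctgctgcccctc
Promoter 1 held 72.4% G and C, 23 CG dinucleotides and 2 matches of GGGCGG over both strands. Its G and C content was higher than that of 93.6% of the 32851 RefSeq windows of this length, whose median was 52.4% with 6 CG dinucleotides. Neither CCAAT nor TATAAA matched there, and none of these 3 motifs matched promoter 2, which held 52.4% G and C and 2 CG dinucleotides. GGGCGG occurred in 32.7% of all windows, CCAAT in 33.8% and TATAAA in 12.4%.

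Transcript sequences of GENCODE M21 held the first 30 bases of intron 12 (chr11:117150739-117150768, plus strand) and the last 40 bases of intron 13 (chr11:117155180-117155219, plus strand). Capitals mark the 7 bases at the 5′ splice site and the 3 bases at the 3′ splice site.
intron 12, 5′ end: GTATGTAtgggcgagaaggtgcacacggca
intron 13, 3′ end: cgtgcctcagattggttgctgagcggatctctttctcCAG
The 5′ end of intron 12 starts with GTATGT, as did 2.90% of the 21711 introns whose first bases could be read. An end could be read only where an annotated transcript of the same gene has an exon over it. The shares given here are thus not those of all introns. It does not start with GTATCCT or ATATCCT, the 5′ motifs of U12-type introns, which 0.520% and 0.212% of those introns had. The 3′ end of intron 13 holds neither CCTTAAC nor TCCTTAA, the U12-type branch point motifs, found on the sense strand in 0.422% and 0.489% of the last 40 bases of 17783 introns. Of the 20 bases before its last 3, 13 are pyrimidines. The other ends of the 15 introns were not read here, so their class was not assigned.

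Depth and labels were checked first. The spliced total of a library ran from 44083233 to 84832431 counts for progenitors, from 43514139 to 61124920 for MEF and from 30481450 to 43345548 for Lin-Kit+ cells. Zrsr2, the targeted gene, had 0 to 5 summed spliced counts in each KO progenitor library against 1192 to 2147 in WT, and 0 to 20 in KO MEF against 1134 to 1521. KO Lin-Kit+ libraries held 3 to 57 against 725 to 1085. The knockdown of Zrsr1 was not measurable here, since none of the listed introns is its own. Levels are in CPM, counts scaled to the library's spliced total. Summed CPM of 5 GMP markers were 25404 to 30672 in GMP and 24.2 to 53.8 in MEP. Those of 5 MEP markers were 3999 to 5122 in MEP and 95.8 to 180 in GMP, and those of 5 fibroblast markers 56684 to 81908 in MEF and at most 110 elsewhere. All 5 macrophage markers were also counted in MEF, at a sum of 227 to 1951 CPM, and in Lin-Kit+ cells, at 922 to 3089. CMP held 113 to 203, GMP 140 to 188 and MEP 1.20 to 3.58.

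Spliced counts of Sec14l1, summed over its 15 introns, were lower in all 9 KO progenitor libraries than in all 9 WT ones. WT CMP held 28.6, 28.7 and 33.7 CPM, from 1855 to 2111 counts, and KO CMP 18.4, 17.8 and 16.2 CPM, from 778 to 900 counts. GMP held 26.6, 26.7 and 28.6 CPM in WT and 16.7, 17.2 and 13.7 in KO. In both types every KO library lay below every WT library, and KO GMP3 was the lowest of the 18. MEP held 32.2, 28.1 and 33.9 CPM in WT and 17.5, 19.3 and 17.5 in KO, again without overlap. The log2 change, fitted over all genes with edgeR and given without a test, was -0.80 for CMP, -0.79 for GMP and -0.82 for MEP. That corresponds to a WT level 1.75, 1.72 and 1.77 times that of the KO. The changes in the 3 types differ by less than the standard error of each, which was 0.10. In bulk samples, fewer cells of a type and less RNA per cell cannot be told apart.

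**Figure D1:**
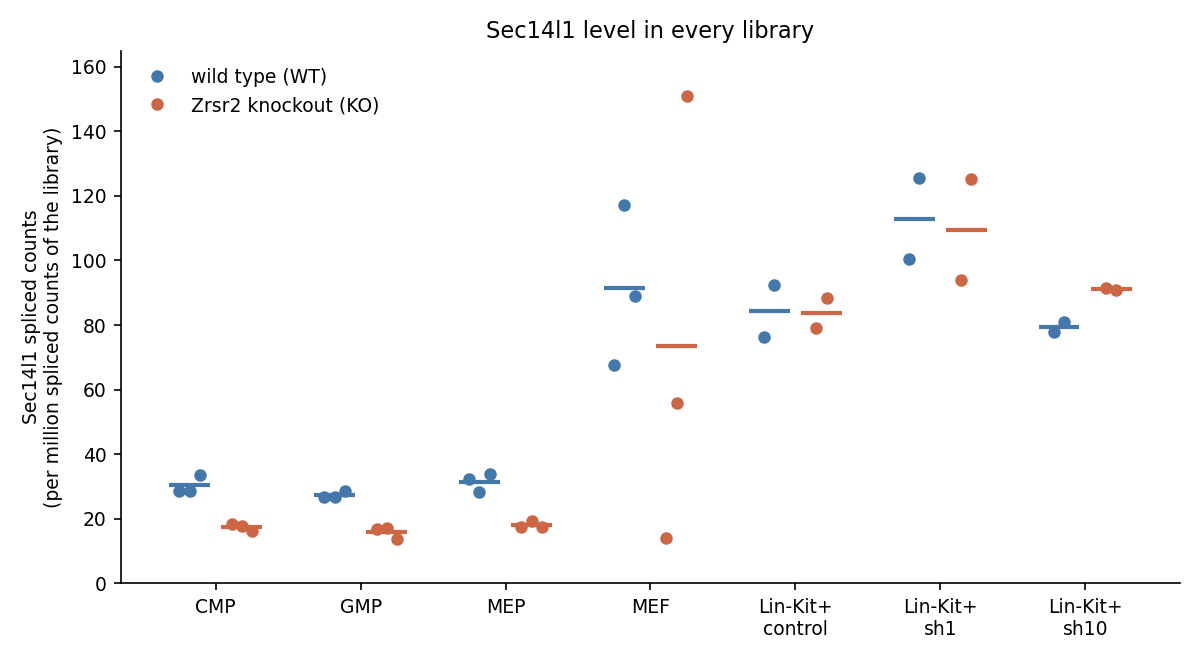
Spliced level of Sec14l1 in CPM (vertical axis) in every library, by cell type or hairpin (horizontal axis), with WT in blue, KO in orange and a bar at each group mean. The 9 KO progenitor libraries lie at 13.7 to 19.3 CPM and the 9 WT ones at 26.6 to 33.9, while KO MEF spread from 13.9 to 151 and the Lin-Kit+ genotypes overlap between 76.2 and 125.

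Markers of other cell types were read beside these values. In CMP the 5 mature neutrophil markers summed to 95.8, 32.4 and 81.0 CPM in KO and 37.0, 21.8 and 29.1 in WT. In GMP they were 20.1, 6.18 and 23.1 in KO and 33.2, 13.1 and 29.4 in WT, and in MEP 26.8, 11.4 and 18.5 against 31.8, 9.19 and 21.3. The median of the log2 changes fitted to each neutrophil marker was 1.11 (CMP), -0.61 (GMP) and -0.15 (MEP). Macrophage marker sums overlapped between genotypes in CMP and MEP and were 140 to 156 in KO against 158 to 188 CPM in WT GMP. No marker of these 2 lists passed edgeR in a KO to WT comparison of progenitors, where 0.0228%, 0.0171% and 0.0456% of all genes did. The part of these cells in the Sec14l1 values was not tested.

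The lower level ran along the whole gene. The mean of the KO libraries was below that of the WT libraries at 15 of 15 introns in CMP, in GMP and in MEP, where 47.6%, 49.0% and 46.9% of all introns with at least 0.3 CPM in a group were lower in KO. Every KO library lay below every WT library at 8 introns in CMP, 13 in GMP and 13 in MEP, against 5.65%, 3.37% and 3.07% of those introns over all genes. These introns share reads and are not separate measurements, and the contrast is the one the gene was chosen on. The log2 change per intron ran from -1.42 at intron 4 to -0.18 at intron 3 in CMP, with a median of -0.74. In GMP it ran from -1.25 at intron 13 to -0.53 at intron 8 (median -0.72), and in MEP from -1.13 at intron 11 to -0.37 at intron 2 (median -0.78). The intron with the smallest or the largest change was thus a different one in each cell type.

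Intron 1, in the 5′ UTR downstream of promoter 1, was read in every progenitor library. It held 1.30, 0.402 and 0.861 CPM in WT CMP and 0.363, 0.416 and 0.751 in KO CMP, which overlap. In GMP it held 0.758, 1.16 and 1.01 CPM in WT and 0.684, 0.487 and 0.554 in KO, and in MEP 1.30, 1.06 and 1.32 against 0.480, 0.552 and 0.819, without overlap in either. Intron 2, which contains promoter 2, held 1.68, 1.38 and 2.34 CPM in WT CMP and 1.02, 1.23 and 1.02 in KO CMP.

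The balance of the first 2 introns against the other 13 was taken as a measure of which start was used, since a transcript from the second start has no intron 1 and no full intron 2. The mean CPM of introns 1 and 2 over that of introns 3 to 15 was 0.756, 0.430 and 0.684 in WT CMP and 0.529, 0.660 and 0.797 in KO CMP. It was 0.597, 0.629 and 0.676 in WT GMP and 0.409, 0.651 and 0.758 in KO GMP. MEP gave 0.632, 0.611 and 0.632 in WT and 0.719, 0.578 and 0.879 in KO. The ranges of the genotypes overlapped in all 3 types. In MEP the KO values of 0.719 and 0.879 lay above all WT values and that of 0.578 below them. Whether the start used differs between the genotypes was not tested.

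**Figure D2:**
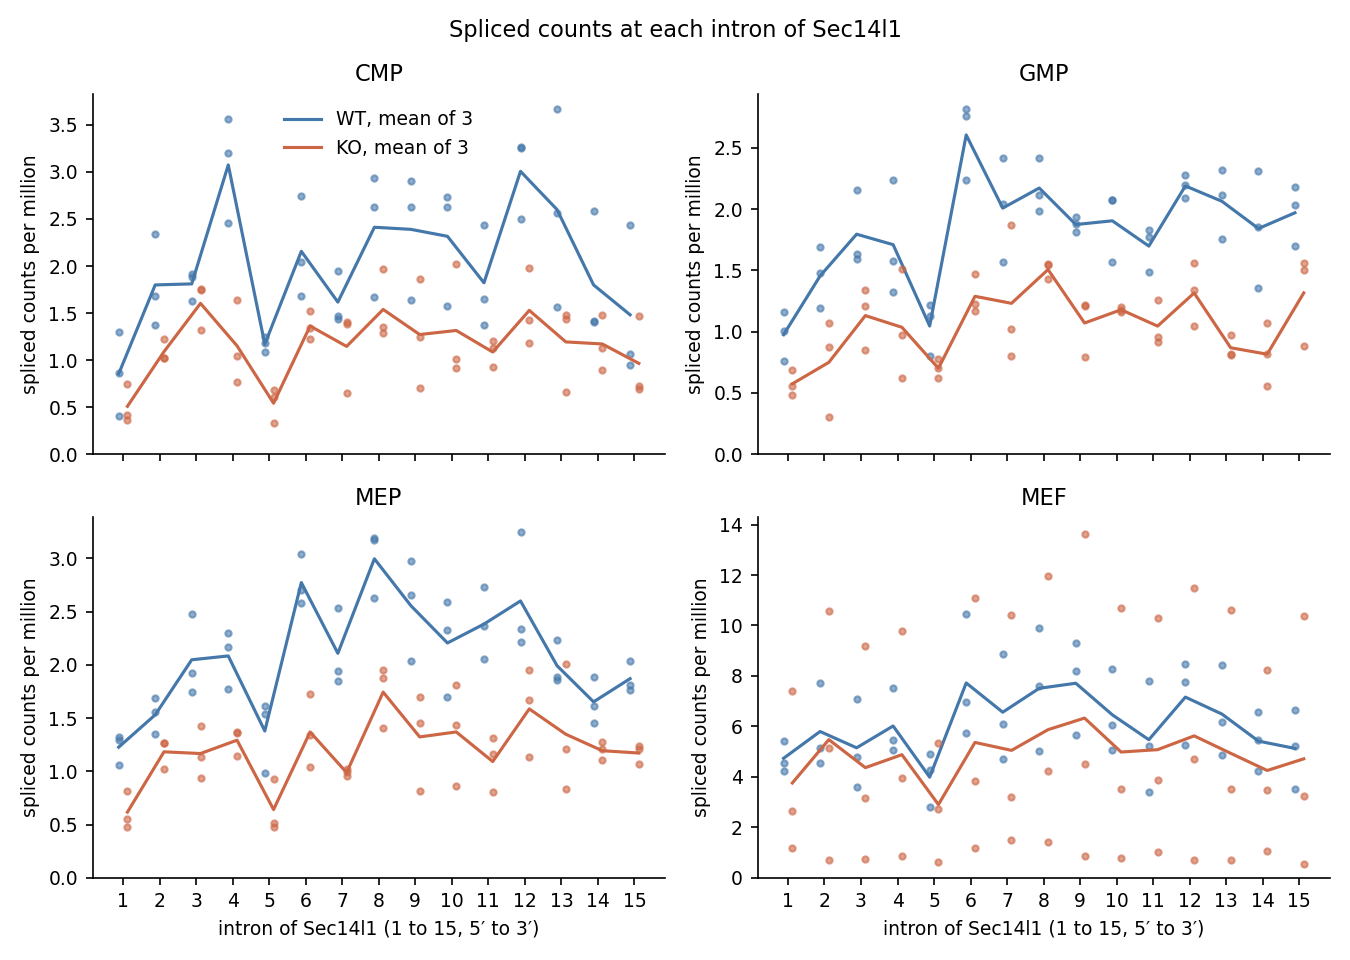
Spliced CPM at each of the 15 introns of Sec14l1 in 5′ to 3′ order, in CMP, GMP, MEP and MEF (vertical axes differ), with points for libraries and lines for means of 3 libraries, WT in blue and KO in orange. The KO line lies below the WT line at every intron in the 3 progenitor types, and the KO points of MEF lie both above and below all WT points.

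Exon-intron reads, which cross a boundary between an exon and an intron and come from RNA in which that intron is not removed, were few. Over the gene they numbered 40 to 103 per WT and 32 to 100 per KO progenitor library. Scaled to the spliced total (CPM), WT CMP held 1.44, 0.866 and 1.55 and KO CMP 2.27, 0.891 and 1.09. GMP held 0.998, 0.968 and 0.805 in WT and 0.486, 1.06 and 1.16 in KO, and MEP 0.976, 0.653 and 1.15 in WT and 0.928, 0.669 and 0.670 in KO. The genotypes overlapped in each type. The spliced counts, which did not, were far more numerous and were those the gene was chosen on. For exon-intron counts the log2 change was 0.04 (SE 0.36) for CMP, -0.01 (SE 0.37) for GMP and -0.33 (SE 0.37) for MEP, also without a test.

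**Figure D3:**
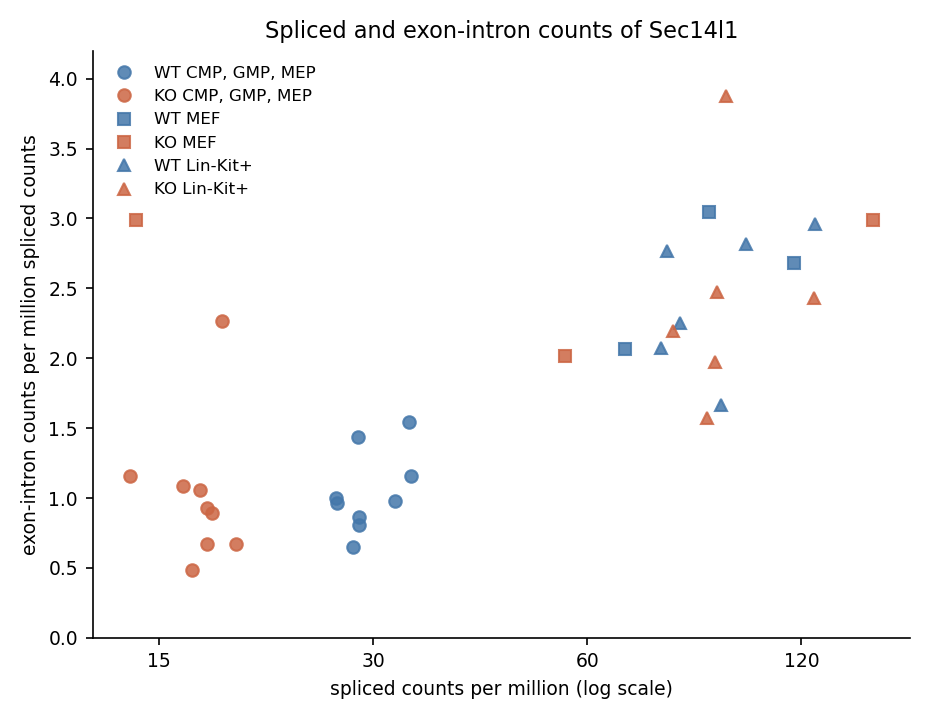
Each point is a library, with spliced CPM of Sec14l1 on the horizontal axis (log scale) and exon-intron CPM of Sec14l1 on the vertical axis, for progenitors (circles), MEF (squares) and Lin-Kit+ cells (triangles). KO progenitors lie to the left of WT progenitors at a similar height, and KO MEF4 lies far to the left at 13.9 and 2.99.

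Retention of an intron, a percent value in the deposited tables, sets its exon-intron reads, summed over the 5′ and 3′ end, against a total in which each spliced read counts 2 times and each exon-intron read 1 time. Over the gene, computed from the summed counts, it was 2.46, 1.49 and 2.25% in WT CMP and 5.81, 2.44 and 3.23% in KO CMP. It was 1.84, 1.78 and 1.39% in WT GMP and 1.44, 2.99 and 4.06% in KO GMP, and in MEP 1.49, 1.15 and 1.67% against 2.58, 1.71 and 1.88%. Only in MEP did every KO library lie above every WT library. The ratio has the spliced counts in its lower part, so it carries the difference on which the gene was chosen.

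Intron 13 (chromosome 11, 117153279 to 117155219, 1941 bases) was the most retained on average in KO CMP, KO GMP and KO MEP. WT CMP held 10.4, 1.86 and 9.30% and KO CMP 44.2, 9.64 and 9.80%, where the 44.2% of KO1 rests on 46 exon-intron and 29 spliced reads. In GMP it held 7.85, 4.69 and 2.78% in WT and 10, 19.4 and 19.8% in KO, without overlap, and in MEP 7.46, 3.17 and 9.54% against 11.1, 6.61 and 10.5%. The fraction of intron 13 covered by reads was 0.852 to 0.970 in WT and 0.786 to 0.963 in KO progenitors, so reads lay over most of its length in both genotypes.

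Intron 12 (chromosome 11, 117150739 to 117153143, 2405 bases) held 7.25, 0 and 1.45% in WT CMP and 21.8, 10 and 7.32% in KO CMP. In GMP the values were 2.56, 6.37 and 5.45% in WT and 0, 9.27 and 5.82% in KO, and in MEP 2.24, 2.67 and 2.51% against 5.33, 3.38 and 0.758%. KO was thus higher without overlap in CMP and overlapped WT in GMP and MEP. The share of all introns with such a separation in retention was not counted. Intron 10 (chromosome 11, 117149217 to 117150158, 942 bases) was at 0 to 1.01% in all 9 WT progenitor libraries. Its values were 2.20, 0 and 9.28% in KO CMP, 0, 2.13 and 9.09% in KO GMP and 0, 0.461 and 5.69% in KO MEP, so the library numbered 3 was highest in each type. These 3 libraries carry the same KO mouse number, and the other 6 KO libraries lay between 0 and 2.20%. A count of 0 exon-intron reads at intron 10 or 12 in these libraries allows a retention of up to 0.706 to 2.86% (3 reads), for counting error only.

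**Figure D4:**
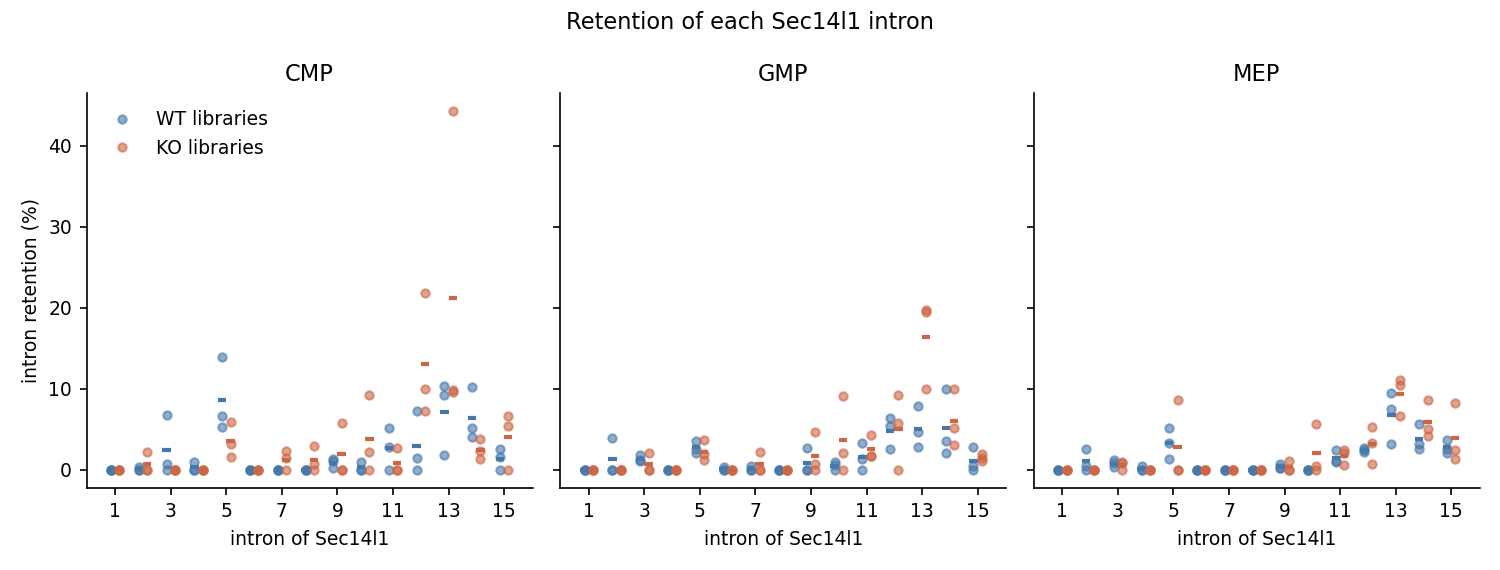
Retention in percent (vertical axis) of each Sec14l1 intron from 5′ to 3′ (horizontal axis) in CMP, GMP and MEP, with points for libraries and short bars for group means, WT in blue and KO in orange. Introns 12 and 13 carry the highest KO values, up to 21.8% and 44.2% in KO CMP1, and most other introns lie under 10% in both genotypes.

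Of the 15 introns, mean retention was higher in KO at 8, 8 and 6 in CMP, GMP and MEP, lower at 5, 4 and 5, and equal at 0 in the rest. Intron 5, of 365 bases, went the other way in CMP, with 5.32, 6.67 and 13.95% in WT and 3.23, 1.59 and 5.88% in KO, which overlap. Intron 14 held 3.85, 1.32 and 2.27% in KO CMP against 5.16, 4.02 and 10.2% in WT CMP, lower in KO without overlap. Mean retention was thus higher at some introns and lower at others of the same gene. Without a share over all introns, the introns named above as free of overlap in retention are a description.

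The level of Sec14l1 across WT cells was a contrast the choice of the gene did not use. The WT progenitor libraries themselves entered the choice, and their spread enters the SE and p-values below. WT GMP and WT CMP held 27.3 ± 1.15 and 30.3 ± 2.91 CPM (SD, n = 3), and the fitted log2 difference of GMP minus CMP was -0.01 (SE 0.10, edgeR adjusted p = 0.947). WT MEP, at 31.4 ± 2.99 CPM, differed from CMP by 0.19 (SE 0.10, edgeR adjusted p = 0.152) and from GMP by 0.20 (SE 0.10, adjusted p = 0.125). None of the 3 differences passed the test, where edgeR called 24.8%, 46.7% and 45.8% of genes in the 3 contrasts. The 95% intervals were -0.23 to 0.21, -0.03 to 0.41 and -0.02 to 0.42. Without WT CMP3, MEP passed against CMP at 0.28 (edgeR adjusted p = 0.0348), and without WT MEP2 it passed against GMP at 0.28 (adjusted p = 0.0457).

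WT MEF held more Sec14l1 than WT progenitors. The 3 libraries were at 67.7, 117 and 89.0 CPM, all above the highest WT progenitor at 33.9, and the log2 difference from the mean of WT CMP, GMP and MEP was 1.78 (SE 0.34, 95% interval 1.08 to 2.48). That is a 3.44-fold higher level (edgeR adjusted p = 9.3e-05) in a contrast in which 68.4% of genes were called and 38.9% were called higher. All 5 macrophage markers were higher in WT MEF as well, with a median log2 difference of 8.01, and their sum in WT MEF was 227, 940 and 1951 CPM. The order of the WT MEF libraries by macrophage markers was not their order by Sec14l1, and the part of such cells in the difference was not tested. MEF came from embryos and progenitors from other animals, and this cannot be told apart from the cell type.

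Intron use within the gene was also compared between WT cells. By edgeR's test of intron usage, 0 of 15 Sec14l1 introns were called for GMP against CMP, MEP against CMP, MEP against GMP or MEF against progenitors, where 0.0494%, 0.68%, 0.239% and 1.7% of all introns were. Intron 4 alone was under 0.05 without adjustment, in GMP against CMP and MEP against CMP, where its edgeR adjusted p was 1 and 0.817. For retention, 0 of the 3 introns with enough reads were called between progenitor types (0.0514%, 0.263% and 0.284% over all introns). Likewise 0 of 8 were called between MEF and progenitors (11% over all introns), and none of these had an unadjusted p under 0.05 in edgeR.

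KO and WT MEF were libraries that the choice did not use, and there the genotypes overlapped. WT MEF held 67.7, 117 and 89.0 CPM and KO MEF 13.9, 55.8 and 151. KO MEF4 was the lowest and KO MEF6 the highest of the 6. The log2 change was -0.30 (SE 0.74, 95% interval -2.06 to 1.46, edgeR adjusted p = 1), an interval that includes both 0 and the change seen in progenitors. Without KO MEF4 it was 0.19 (SE 0.42) and without KO MEF6 -1.36 (SE 0.72), so single libraries set its size and its sign, and neither passed edgeR (adjusted p = 1 and 0.922). Over all 16735 genes edgeR called 0 (percent called 0), with 265 at an unadjusted p under 0.05, and DESeq2 called 14. Macrophage markers were lower in KO MEF on average at 5 of 5 (median log2 change -0.40, 0 called). Their sum was 293, 469 and 1560 CPM in KO MEF4, KO MEF5 and KO MEF6, the order of Sec14l1 in these 3 libraries, and their part in the values was not tested.

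KO MEF4 also stood apart in retention. It held 606 spliced and 130 exon-intron counts of Sec14l1, a gene retention of 9.69%, where the other 5 MEF libraries had 0.979 to 1.77%. Its exon-intron level was 2.99 CPM, within the 2.01 to 3.05 of the others, so it was the spliced reads that were few. Intron 10 was retained at 30.6% in KO MEF4 and at most 2.98% in the other MEF, intron 12 at 22.1% against at most 3.75%, and intron 13 at 26.8% against at most 5.51%. Intron 9 held 22.9% in this library and at most 1.53% in the other MEF. These introns of KO MEF4 rest on 30 to 37 spliced reads each.

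Mean spliced counts were lower in KO MEF at 15 of 15 introns, which share reads. Of all introns with at least 0.3 CPM in a group, 53.6% were lower in KO MEF. At 0 of the 15 did every KO library lie below every WT library (3.57% of those introns over all genes). Intron usage was called by edgeR at 0 of 15 introns and over all introns at 0 of 128560 (189 at an unadjusted p under 0.05). Retention was called at 0 of 3 introns and over all at 0 of 32573 (562 at an unadjusted p under 0.05), and no Sec14l1 intron had an unadjusted p under 0.05 in either test. Exon-intron counts of the gene had a log2 change of 0.07 (SE 0.23, edgeR adjusted p = 1), where 0.00913% of genes were called.

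In Lin-Kit+ cells Sec14l1 was at 76.2 to 125 CPM, above every WT progenitor library, in libraries made with another kit. With the control hairpin, WT held 76.2 and 92.5 CPM in experiments 1 and 2 and KO 79.2 and 88.4. With sh1, WT held 100.4 and 125 CPM and KO 93.9 and 125, and with sh10 WT held 77.7 and 81.0 and KO 91.3 and 90.7. KO was above WT in both experiments with sh10 alone, and in 1 of the 2 experiments with the control hairpin.

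The KO minus WT difference was 0.06 on the log2 scale with the control hairpin (SE 0.30, 95% interval -0.61 to 0.73, edgeR adjusted p = 1). Averaged over the 3 hairpins it was 0.11 (SE 0.17, 95% interval -0.28 to 0.50, adjusted p = 1). The lower bound of -0.28 lies above the -0.79 to -0.82 of the progenitors, which were fitted in other libraries, and the difference between the cell types was not tested. edgeR called 0 of 17828 genes in both contrasts (percent called 0 for each), with 158 and 350 at an unadjusted p under 0.05, and DESeq2 called 33 and 24. Lin-Kit+ libraries of the same experiment deviated together, and with the experiment as a replicate block edgeR called 1 and 4 genes (0.00561% and 0.0224%). Sec14l1 was then at 0.07 (SE 0.11, edgeR adjusted p = 1) and 0.11 (SE 0.06, adjusted p = 0.796).

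Hairpins against Zrsr1 addressed a loss of the related gene. The mean of sh1 and sh10 minus the control hairpin was 0.27 in WT (SE 0.26, edgeR adjusted p = 0.922) and 0.35 in KO (SE 0.26, adjusted p = 0.813). The difference between these, 0.07 (SE 0.36, edgeR adjusted p = 1), was within its error. Of the hairpins, sh1 was above the control in each genotype and experiment, and sh10 was above it in 1 of the 2 experiments in WT and in both in KO. Over all genes edgeR called 0 in WT and 0 in KO (percent called 0 for each), with 1325 and 1285 at an unadjusted p under 0.05 and 394 and 375 called by DESeq2. With the experiment as a block, edgeR called 8.75% of genes in WT (4.64% higher, 4.11% lower) and 9% in KO (4.62% higher, 4.38% lower), and Sec14l1 remained under the threshold at 0.27 (SE 0.10, adjusted p = 0.116) and 0.34 (SE 0.10, adjusted p = 0.0597).

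Markers moved with the hairpins. In the blocked fit 4 of 5 macrophage markers rose in each genotype by edgeR (median log2 change 1.03 in WT and 1.28 in KO), and 2 of 5 stem and progenitor markers fell (median -0.73 and -0.57). Of 5 mature neutrophil markers 3 rose in WT and 2 in KO, and of 5 GMP markers 2 fell in WT and 5 in KO. Macrophage marker sums were 922 to 1491 CPM with the control hairpin, 1478 to 3089 with sh1 and 1490 to 3023 with sh10. Their part in the Sec14l1 values was not tested.

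Within the gene, the libraries of the 2 experiments differed more than the genotypes. Mean CPM of introns 14 and 15 over that of introns 1 and 2 was 0.795 to 1.04 in the 6 libraries of experiment 1 and 1.43 to 2.76 in the 6 of experiment 2, without overlap. The median of the same ratio over 3876 genes was 1.34 to 1.57 in experiment 1 and 1.22 to 1.56 in experiment 2. Intron 15 in experiment 2 held 7.41, 12.2 and 7.49 CPM in WT with control, sh1 and sh10, and 13.2, 16.5 and 12.6 in KO. In experiment 1 it held 4.59, 6.53 and 4.67 CPM in WT and 5.74, 7.10 and 5.93 in KO. KO was thus above WT at intron 15 in all 6 pairs of the same hairpin and experiment.

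That pattern did not pass the test over all introns, in a fit without the experiment as a block. With the block no Sec14l1 intron was called either. How often other introns had KO above WT in every such pair was not counted. By edgeR's usage test, averaged over the 3 hairpins, intron 15 had the smallest p of the 15 (edgeR adjusted p = 1), with 0 of 15 called and 0 of 125177 over all introns (403 at an unadjusted p under 0.05). Retention was called at 0 of 8 Sec14l1 introns and 0 of 46630 in all (909 at an unadjusted p under 0.05). No Sec14l1 intron had an unadjusted p under 0.05 in either edgeR test. Intron 13 was retained at 0 to 6.86% in WT and 0.420 to 4.48% in KO Lin-Kit+ libraries, and intron 12 at 0 to 3.52% and 0 to 5.35%. Exon-intron counts of the gene had a log2 change of 0.02 (SE 0.24, edgeR adjusted p = 1), where 0.00867% of genes were called.

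**Figure D5:**
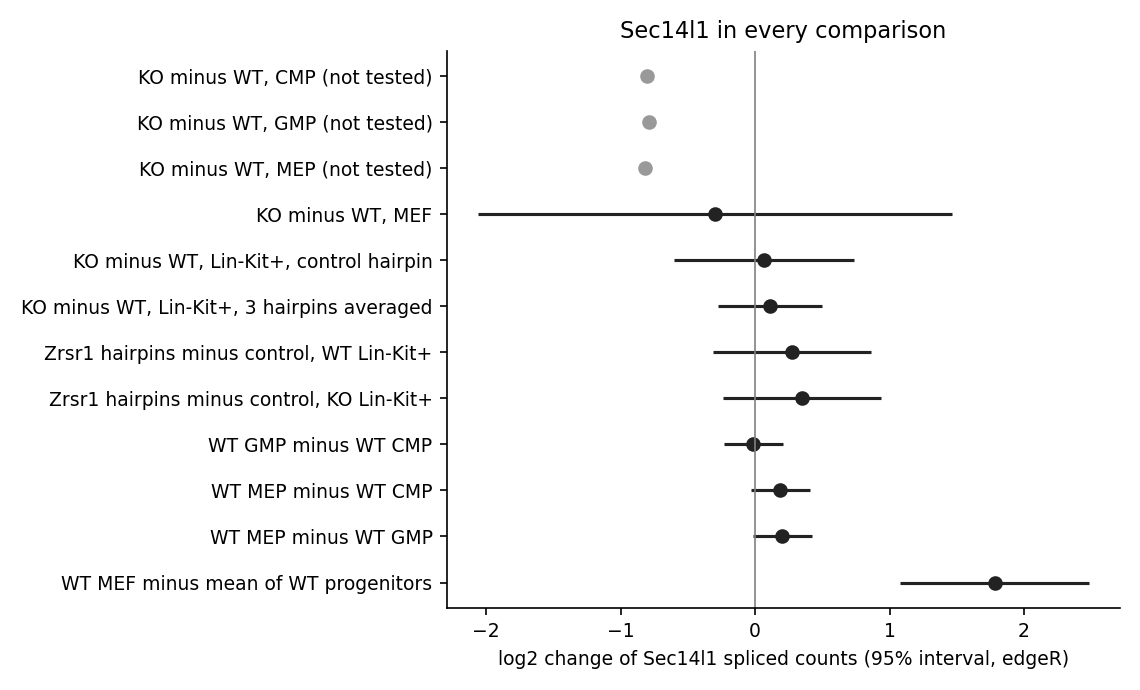
Log2 change of Sec14l1 spliced counts (horizontal axis) in each comparison (vertical axis), with 95% intervals from edgeR for the comparisons that were tested and grey points without intervals for the 3 that were not. The 3 progenitor changes lie at -0.79 to -0.82, the intervals for MEF and Lin-Kit+ cells include 0, and WT MEF minus WT progenitors lies at 1.78.

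Other genes with domains or a pathway in common were read from lists. Of the SEC14 domain family without Sec14l1, 10 of 22 measured members were higher and 12 lower in KO CMP (median log2 change -0.08). The counts were 8 and 14 in GMP (median -0.11), 10 and 12 in MEP (median -0.01) and 12 and 8 of 20 in MEF (median 0.08). Over all genes the medians were 0.00, 0.00, -0.01 and -0.01, and edgeR called 0 members, where it called 0.0228%, 0.0171%, 0.0456% and 0% of all genes. Sec14l2, which encodes a tocopherol-associated protein, had log2 changes of -0.60 (SE 0.45) in CMP, -0.33 (SE 0.50) in GMP and -0.51 (SE 0.44) in MEP. Per intron, Sec14l2 was at 0.356 CPM in WT CMP and 1.74 in WT MEP, where Sec14l1 was at 2.02 and 2.09. Sec14l5 was at most 0.0522 CPM per intron in any group.

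The family members with the smallest p were Mcf2l, Kalrn, Ttpa and Gdap2. Mcf2l was at 1.85 in KO minus WT MEP (SE 0.47, edgeR adjusted p = 0.392), and Ttpa, the alpha-tocopherol transfer protein, at 0.98 (SE 0.31, adjusted p = 0.669). Kalrn was at -1.35 with hairpins in WT Lin-Kit+ cells (SE 0.33, edgeR adjusted p = 0.343), and Gdap2 at 0.41 with hairpins in KO (SE 0.15, adjusted p = 0.598). None passed without the block. With the experiment as a block, 3 of 21 fell with hairpins in WT, where 4.11% of all genes were called lower, Kalrn by 1.33, Mcf2l by 1.09 and Mospd2, a membrane contact protein, by 0.54 (edgeR adjusted p = 0.0265, 0.0131 and 0.0331), and 0 of 21 passed in KO.

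Of the 4 genes of the PRELI domain family, which carry phospholipids in mitochondria, 2 were higher and 2 lower in KO CMP and in KO GMP, and 1 higher and 3 lower in KO MEP and KO MEF. With hairpins 1 was higher and 3 lower in WT (median log2 change -0.25 against -0.03 over all genes) and 0 and 4 in KO (median -0.30 against -0.01). Prelid1 was at 0.02, -0.07 and -0.04 in KO minus WT CMP, GMP and MEP (SE 0.08 each) and at -0.18 in MEF (SE 0.11). Prelid3b was at -0.10, 0.02 and -0.04 (SE 0.09 each) in the progenitors. Of the 4 members edgeR called 0 in any KO to WT or hairpin comparison, with or without the block. Over all genes the shares called were 0.0228%, 0.0171%, 0.0456% and 0% in KO CMP, GMP, MEP and MEF. In the blocked fit they were 8.75% and 9% with hairpins in WT and KO. Among 10 GOLD domain genes, mostly p24 cargo receptors of the early secretory pathway, 4 were higher and 6 lower in KO CMP. The counts were 5 and 5 in GMP and 3 and 7 in MEP. In these types 0 were called, beside the shares over all genes just given. Acbd3, a Golgi scaffold, was at -0.18 in CMP (SE 0.09, edgeR adjusted p = 0.835), and Tmed5 at -0.68 with hairpins in WT (SE 0.30, adjusted p = 0.662).

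Of 17 genes of the RIG-I pathway, 9 were higher and 8 lower in KO CMP, 6 and 11 in GMP, 7 and 10 in MEP and 6 and 11 in MEF. In each 0 were called, where 0.0228%, 0.0171%, 0.0456% and 0% of all genes were. Nlrx1, a mitochondrial regulator of this signalling, was at 0.63 in MEP (SE 0.27), Rnf135, a ubiquitin ligase for RIG-I, at -0.35 in GMP (SE 0.17), and Irf3, a transcription factor of interferon genes, at -0.14 in GMP (SE 0.07). Each had an edgeR adjusted p of 1. With hairpins 15 of 17 were higher in WT Lin-Kit+ cells (median 0.34 against -0.03 over all genes) and 11 of 17 in KO (median 0.11 against -0.01), with 0 called in either. In the blocked fit 2 rose in WT, the kinase Ikbke by 0.67 and the interferon factor Irf7 by 0.68 (edgeR adjusted p = 0.00599 and 0.0398), and Ikbke rose by 0.39 in KO (adjusted p = 0.0439). In that fit 4.64% of all genes were called higher in WT and 4.62% in KO, and 4 of 5 macrophage markers rose in each, whose part in these values was not tested.

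Genes next to Sec14l1 were read for the same contrasts. Sept9, a septin of the cytoskeleton that starts 40.4 kb beyond the 3′ end of Sec14l1, had log2 changes of 0.10, -0.02 and 0.10 in KO CMP, GMP and MEP (SE 0.07 each). Mfsd11, 239.5 kb on the 5′ side, was at 0.02, -0.12 and 0.06 (SE 0.11 each). The neighbours read were the 5 nearest on each side with a listed intron and enough counts in progenitors, up to 622.8 kb away. Of these 10 genes, 7 were higher in KO CMP, 4 in GMP, 8 in MEP and 7 in MEF. In each edgeR called 0 of them, where it called 0.0228%, 0.0171%, 0.0456% and 0% of all genes. With hairpins and the experiment as a block, Mfsd11 and Tmc8 rose in WT (by 0.70 and 0.87) and in KO (by 0.90 each), and Sept9 rose in KO by 0.36 (edgeR adjusted p of 0.00616 to 0.0286). These are 2 of 9 measured neighbours in WT and 3 of 9 in KO, where 4.64% and 4.62% of all genes were called higher.

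The genes most like Sec14l1 within progenitor types were found by the Pearson correlation of log2(CPM + 0.5) over the 18 libraries, after subtracting each type's mean. Among 8868 genes with at least 5 CPM on average, these were Zrsr2 (r = 0.972), Ubl5 (0.853), Lage3 (0.813), Mcts1 (0.768) and Hsph1 (0.754). All points share the split into KO and WT libraries, and with the gene chosen on that split these values are a description. Mean levels of Ubl5, a ubiquitin-like protein of the spliceosome, were 150 CPM in WT and 130 in KO CMP, 150 and 130 in GMP and 163 and 143 in MEP. Mcts1, a factor of translation re-initiation, was at 73.0 and 56.6, 73.0 and 55.4, and 60.4 and 48.7.

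Over the 14 group means, the 5 most alike of 9934 genes were Slc11a1 (r = 0.952), Tmem9b (0.952), Cd300ld3 (0.951), Ms4a7 (0.951) and Snx2 (0.950). These points share kit and cell source within each class of library. Slc11a1, a metal transporter of macrophage phagosomes, was at 0.709 to 1.62 CPM in the WT progenitor groups, 45.9 in WT MEF and 82.5 to 147 in the WT Lin-Kit+ groups. Ms4a7, a macrophage membrane gene, was at 0.0506 to 0.251, 98.7 and 271 to 487 in the same groups.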

How the data were processed

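Each library had a table of 219945 introns. Per the file headers, the authors deposited counts of spliced reads and of exon-intron reads at both ends, the covered fraction of the intron and a percent value of retention. The deposited percent was recomputed from the counts within 0.01 in every library. Submitters' processing notes name mm10. Which aligner and counter were used is not stated in the labels or headers. No strand is recorded for the counting, so antisense or overlapping RNA cannot be told apart. Introns were matched to genes with GENCODE M21, and 1887 introns belonged to more than 1 gene.

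Spliced counts were summed per gene over its introns, so a longer transcript with more introns counts more often. CPM scales counts to the spliced total of the library. Genes were fitted with edgeR 4.0.16 (quasi-likelihood, TMM, filterByExpr) in R 4.3.3, with Benjamini-Hochberg adjustment over all genes and a threshold of 0.05. Intron usage and retention were also tested with edgeR, and DESeq2 1.42.0 was an alternative. The fits were tested on simulated data with a fixed spread and no effect of mouse or experiment, so that test does not cover such effects. The members and lists were chosen with earlier results of these data known. The genes named in each list are those past the threshold or with the smallest p, except Sec14l2 and Sec14l5, which were named outside this rule. The genes most alike are the 5 with the highest correlation, taken over 18 libraries or all 14 group means.

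Replicate numbers were checked by the correlation of deviations from group means. In Lin-Kit+ cells the labels give the experiment, and correlations within it were 0.557 to 0.633. WT cell types of the same mouse gave 0.041 to 0.117 and KO cell types -0.134 to 0.221, against -0.128 to 0.015 and -0.182 to 0.154 for different mice. KO and WT with the same number gave 0.103 to 0.245 in MEP, 0.074 to 0.088 in CMP and 0.026 to 0.159 in GMP. With different numbers they gave -0.213 to 0.055, -0.055 to -0.028 and -0.150 to 0.034. The ranges thus did not overlap in MEP and CMP, and the main progenitor fit did not use the number.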

Additional observations from a re-analysis of the deposited data

How the results depend on the processing

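For the change of Sec14l1 in KO progenitors, all 27 alternative values kept their direction, and leaving out 1 library gave -0.84 to -0.73 (CMP), -0.84 to -0.68 (GMP) and -0.87 to -0.74 for the MEP. The gene was chosen on this contrast in the same libraries, so the kept direction is a description and not support. The calls of 0 Sec14l1 introns for usage or retention held in all 130 alternatives run. In the main KO to WT fits 0% of all introns were called, so that agreement says little there. Taking the median count over introns turned WT GMP minus CMP to 0.093 and KO minus WT with the control hairpin to -0.0069, and the cause was not tested. Leaving out 1 library gave -0.046 to 0.069 for WT GMP minus CMP, 0.14 to 0.28 for MEP minus CMP and 0.15 to 0.28 for MEP minus GMP. It gave -1.36 to 0.19 for KO minus WT in MEF, -0.13 to 0.27 with the control hairpin and -0.0017 to 0.20 averaged over hairpins. For exon-intron counts it gave -0.098 to 0.21 (MEF) and, averaged for Lin-Kit+ cells, -0.059 to 0.12. Spliced counts gave, for hairpins minus control, 0.09 to 0.48 in WT and 0.18 to 0.53 in KO, and for WT MEF minus progenitors 1.69 to 2.11.

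With a replicate block the progenitor changes were -0.80, -0.79 and -0.82, and WT GMP minus CMP, MEP minus CMP and MEP minus GMP were -0.01, 0.19 and 0.20. MEF samples share only a number (correlations -0.214 to 0.627), and the block gave -0.85 there. The block changed no call of Sec14l1. No paired analysis was possible for WT MEF against progenitors because embryos and mice differ. Genes called by edgeR in CMP, GMP and MEP numbered 4, 3 and 8, and by DESeq2 49, 22 and 97. Without a filter on low counts edgeR called 2 in CMP and 13 in MEP, and with the block 2 in CMP. In MEF DESeq2 called 14. For KO minus WT with the control hairpin and averaged, DESeq2 called 33 and 24, edgeR without the filter 8 and 7 and with the block 1 and 4. For hairpins in WT and KO these were 394 and 375, 118 and 39, and 1560 and 1604. Exon-intron reads of Sec14l1, 32 to 164 per library, limit what could be resolved for retention.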
